A study of Mus musculus with 9 samples.

Results

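The genes described here are 10 transcription factors known for setting or keeping the fate of rods and cones, the photoreceptors of the retina: Crx, Otx2, Nrl, Nr2e3, Neurod1, Mef2d, Mef2c, Rorb, Thrb and Rxrg. They were chosen by name from the deposited table of gene levels, which lists 15228 genes, and all 10 had a row. The libraries were made from cells sorted by flow cytometry as retinal ganglion cells (RGCs), positive for CD90.2 and negative for CD48, CD15 and CD57, from wild-type mice that were 6 to 8 weeks old at surgery. The Ctrl group came from intact retinas. The ONC group came from retinas 3 d after optic nerve crush (ONC), a lesion of the axons of RGCs, with an intraocular injection of PBS. The TPEN group came from crushed retinas injected with 100 μM TPEN, a membrane-permeable zinc chelator, and TPEN/ONC is thus the comparison in which only the injected agent differs. Each group had 3 libraries. No source used here says that they came from separate mice or how many mice were pooled, so the p-values measure the spread between these libraries, which may be technical.

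The label RGC did not match the most abundant transcripts. Gnat1, which encodes rod transducin, ranked 2 of 15228 genes by mean level. The 15 RGC markers with a row, of 19 listed, ranked from 153 to 14541, with a median of 10436. The neurofilament genes Nefl (153), Nefm (847) and Nefh (1811) were the highest, at means of 240, 51.5 and 26.1 RPKM (reads per kilobase of exon, scaled to library depth), followed by Sncg (2289) and Gap43 (2731). Thy1, which encodes the CD90 antigen of the sort, ranked 6283. The more selective RGC markers Rbpms (13805), Slc17a6 (14020) and Pou4f1 (14252) each averaged under 0.5 RPKM. The libraries held 19946993 to 23109754 reads, and the read numbers in all 9 pairs of replicate libraries varied beyond counting error (mean chi-square per gene of 2.30 to 5.32, against 1 for sampling alone). The values below therefore describe the photoreceptor transcripts in cells sorted as RGCs. In such bulk samples, fewer cells of a type and less RNA per cell cannot be told apart.

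In the developing retina, OTX2 directs precursors to the photoreceptor fate and switches on Crx, the homeobox factor that maintains the genes of phototransduction in rods and cones. RORβ acts upstream of Nrl, the leucine zipper factor that selects the rod fate, and NRL in turn switches on Nr2e3, a nuclear receptor that activates rod genes with CRX and NRL and represses cone genes. The basic helix-loop-helix factor NEUROD1 keeps photoreceptors alive and, early on, is needed for expression of Thrb, while the thyroid hormone receptor THRβ and its partner RXRγ pattern the cone opsins. MEF2D binds with CRX at enhancers of photoreceptor genes, and MEF2C is its close relative.

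The promoters of these factors are shown because members of the group regulate each other through short motifs. In the RefSeq table of mouse promoters (GRCm38.p6, 250 bases before to 50 after each annotated start), all 10 genes matched, with 18 windows in all. The sequences below run 5′ to 3′ over the 250 bases before the start, for both genes that rose after ONC and for a pair of those that fell. Capitals mark TAATCC, the motif bound by CRX and OTX2, or its complement GGATTA. They also mark TGCTGA, a part of the motif bound by NRL, or its complement TCAGCA. Last, they mark AGGTCA, the motif bound by nuclear receptors, on either strand.
Neurod1 (chr2:79456637-79456886, minus strand): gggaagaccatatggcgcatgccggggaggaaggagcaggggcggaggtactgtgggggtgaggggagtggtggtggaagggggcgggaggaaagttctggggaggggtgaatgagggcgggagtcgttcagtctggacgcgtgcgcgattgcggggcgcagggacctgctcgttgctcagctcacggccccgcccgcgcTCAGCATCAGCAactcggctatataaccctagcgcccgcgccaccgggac
Mef2d (chr3:88142122-88142371, plus strand): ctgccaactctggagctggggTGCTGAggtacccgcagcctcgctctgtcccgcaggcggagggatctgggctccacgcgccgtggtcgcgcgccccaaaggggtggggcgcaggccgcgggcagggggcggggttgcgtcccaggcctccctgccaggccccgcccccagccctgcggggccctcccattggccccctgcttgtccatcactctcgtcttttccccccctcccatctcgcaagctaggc
Crx (chr7:15879956-15880205, minus strand): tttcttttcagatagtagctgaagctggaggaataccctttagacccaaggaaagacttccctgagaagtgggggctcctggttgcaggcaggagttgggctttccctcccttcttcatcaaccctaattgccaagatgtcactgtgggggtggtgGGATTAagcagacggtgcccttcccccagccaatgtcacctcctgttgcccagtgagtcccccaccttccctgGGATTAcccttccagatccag
Rorb (chr19:19111197-19111446, minus strand): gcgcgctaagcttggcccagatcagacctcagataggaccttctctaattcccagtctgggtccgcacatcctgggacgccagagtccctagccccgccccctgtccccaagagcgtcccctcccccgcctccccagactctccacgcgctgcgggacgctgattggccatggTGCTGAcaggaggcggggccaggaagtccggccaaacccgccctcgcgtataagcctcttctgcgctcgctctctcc

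Crx carried GGATTA at 94 and at 21 bases before its start, counted to the first base of the match. TAATCC or its complement was found in 3 of the 18 windows (16.7%), against 7.06% of all 32851 windows. The other windows with it were those of Thrb and of a downstream start of Otx2. Neurod1 carried TCAGCA at 50 and 44 bases before its start, the copies lying side by side without overlap. TGCTGA, on either strand, was in 6 of the 18 windows (33.3%) and in 19.5% of all windows, AGGTCA in 4 (22.2%) and in 16.3%, and the E-box CANNTG, bound by helix-loop-helix factors such as NEUROD1, in 12 (66.7%) and in 72.3%. Windows of the same gene can overlap, and a match in letters is not a measured site.

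All levels are given as RPKM, so that they can be compared between genes. Averaged over the 9 libraries, Neurod1 was the highest of the 10 and ranked 73 of 15228 genes. Crx ranked 122, Nrl 142 and Nr2e3 161, so the core factors of the rod program lay among the most abundant transcripts. Mef2d ranked 529, Otx2 1345, Mef2c 1571, Rorb 2209 and Thrb 3548. Rxrg ranked 12271, with only 22 to 90 reads per library. This order was the same in Ctrl, ONC and TPEN, and in each group none of the 9 neighbouring pairs in it overlapped over the 3 libraries.

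**Figure D1:**
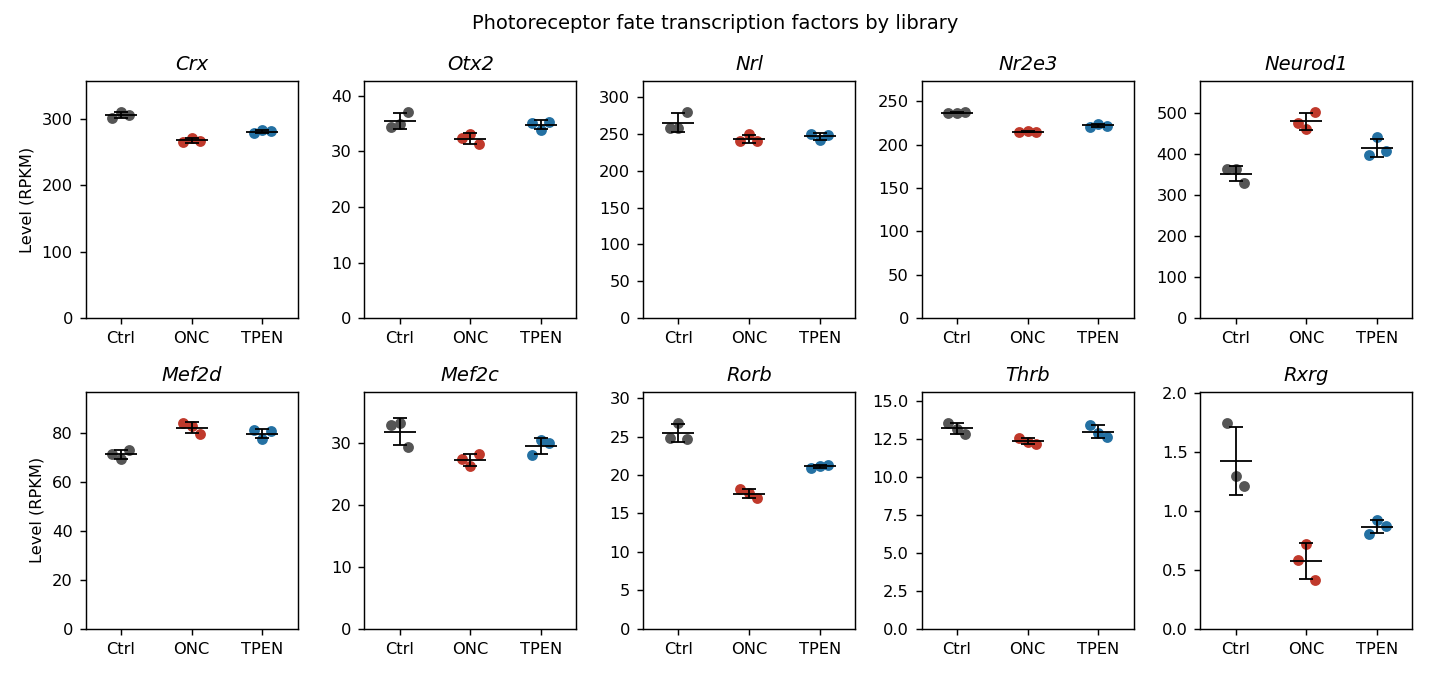
Level in RPKM (vertical axis, from 0, with its own range for each gene) of the 10 factors in the Ctrl, ONC and TPEN libraries. Points are libraries and the bar with whiskers is the mean ± SD (n = 3). For Neurod1 the Ctrl libraries sit between 331 and 363 RPKM, all below the ONC libraries at 462 to 503 RPKM, while for Rorb the Ctrl libraries at 24.7 to 26.8 RPKM sit above the ONC libraries at 17.0 to 18.1 RPKM.

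ONC/Ctrl compares crushed, PBS-injected retinas with intact ones, for which no injection is stated. Effects of the crush and of the injection cannot be told apart in it. Neurod1 and Mef2d were higher in ONC, and Crx, Otx2, Nrl, Nr2e3, Mef2c, Rorb and Rxrg were lower. Thus 9 of the 10 factors passed a limma adjusted p of 0.05, against 18.7% of the 13566 genes tested. The 2 that rose compare with 11.7% of all genes, and the 7 that fell with 6.97%. Most of the differences were small, and only Rxrg also changed by at least 1.5-fold, a limit that 5.34% of genes passed. By voom on whole reads, the same 9 factors were called, against 23.7% of all genes. The Ctrl and ONC libraries did not overlap for any of the 10 factors, which held for 36.5% of all genes tested. All 10 averaged 0.5 RPKM or more and entered the test. Log2 fold changes are on the log2(RPKM + 0.1) scale, which makes those of Rxrg smaller, and are given with their standard error (SE).

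The largest increase was that of Neurod1 (chr2, 79452521 to 79456751, GRCm38). Its level was 363, 363 and 331 RPKM in the Ctrl libraries, 476, 462 and 503 RPKM in ONC, and 397, 441 and 408 RPKM in TPEN. The 3 groups did not overlap, and TPEN lay between Ctrl and ONC. The log2 fold change in ONC/Ctrl was 0.45 (SE 0.051, limma adjusted p = 0.000233), from 352 ± 18.6 to 480 ± 21.1 RPKM (SD, n = 3). NEUROD1 is also made by amacrine cells. Their markers (13 of 17 listed genes with a row, none at 0 in all libraries) summed to 65.6 to 68.2 RPKM in Ctrl, 62.4 to 63.8 in ONC and 68.0 to 70.4 in TPEN. Most of that sum came from Slc6a9 and Calb2, whose log2 fold changes in ONC/Ctrl were -0.35 and 0.20. Of 9 amacrine markers tested, 1 was higher and 2 were lower in ONC/Ctrl, and 5 were higher and 0 lower in TPEN/ONC. The part of amacrine cells in the value of Neurod1 was not tested. The exons of Neurod1 share 201 bases, 7.37% of its exon length, with Cerkl on the same strand, and Cerkl rose as well, from 76.4 ± 2.04 to 108.8 ± 2.18 RPKM (log2 fold change 0.51, limma adjusted p = 4.29e-06). A further 154 bases (5.64%) are shared with Gm26755 on the opposite strand, which had a log2 fold change of 0.31, and the part of shared reads in the value of Neurod1 was not tested.

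Mef2d (chr3, 88142372 to 88172086), the CRX partner, stood at 71.6, 69.5 and 73.2 RPKM in Ctrl, 84.3, 82.9 and 79.8 RPKM in ONC, and 81.2, 77.6 and 80.8 RPKM in TPEN. The ONC and TPEN libraries overlapped, and all 6 were above Ctrl. Its log2 fold change in ONC/Ctrl was 0.20 (SE 0.033, limma adjusted p = 0.00198). It shares 531 exon bases (8.87%) with 1700113A16Rik on the opposite strand, which averaged 3.41 ± 0.641 RPKM in Ctrl and 3.59 ± 0.635 in ONC (SD, n = 3). Its relative Mef2c (chr13, 83504034 to 83667080) went the other way, with 32.8, 33.3 and 29.4 RPKM in Ctrl, 27.4, 26.3 and 28.2 RPKM in ONC and 28.1, 30.5 and 30.0 RPKM in TPEN. All Ctrl libraries were above those of ONC, and TPEN overlapped both groups. The log2 fold change of Mef2c was -0.22 (SE 0.055, limma adjusted p = 0.0200), and its adjusted p was 0.0740 without Ctrl replicate 1, 0.0726 without Ctrl replicate 2, 0.0547 without ONC replicate 1 and 0.0737 without ONC replicate 2. MEF2C is also known in microglia. Of 20 microglia and macrophage markers listed, all 15 tested were higher in ONC than in Ctrl, with a median log2 fold change of 2.78. Their summed levels were 10.1 to 10.4 RPKM in Ctrl and 79.6 to 83.0 RPKM in ONC. The part of microglia in the value of Mef2c was not tested. No marker of that list with a row (17) was at 0 in all libraries.

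Crx (chr7, 15865947 to 15879968) had the most precise decrease among the homeobox factors. It stood at 301, 310 and 306 RPKM in Ctrl, 265, 271 and 266 RPKM in ONC, and 278, 283 and 282 RPKM in TPEN, with 17575 to 22667 reads in each library. The groups did not overlap, and the level fell by 12.6% from Ctrl to ONC (log2 fold change -0.19, SE 0.022, limma adjusted p = 0.000243). Otx2 (chr14, 48657679 to 48667644) was lower, at 0.116 of the level of Crx in Ctrl, with 34.4, 34.9 and 37.1 RPKM in Ctrl, 32.3, 33.2 and 31.4 RPKM in ONC, and 35.1, 33.9 and 35.4 RPKM in TPEN. The ONC libraries were the lowest, and Ctrl and TPEN overlapped. Its decrease in ONC/Ctrl was a log2 fold change of -0.13 (SE 0.039, limma adjusted p = 0.0400). That call was lost without Ctrl replicate 2 (adjusted p = 0.0675), Ctrl replicate 3 (0.102), ONC replicate 1 (0.0981), ONC replicate 3 (0.126), TPEN replicate 1 (0.0549) or TPEN replicate 3 (0.0553), and with only the 6 libraries compared (0.0706), all by limma.

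The rod selector Nrl (chr14, 55518978 to 55524981) was at 258, 258 and 280 RPKM in Ctrl, 240, 250 and 240 RPKM in ONC, and 250, 241 and 249 RPKM in TPEN. The Ctrl libraries were above those of both crushed groups, which overlapped each other. The log2 fold change in ONC/Ctrl was -0.12 (SE 0.036, limma adjusted p = 0.0377). The adjusted p by limma was 0.0618 without Ctrl replicate 3, the highest library, 0.117 without ONC replicate 1, 0.109 without ONC replicate 3, 0.0510 without TPEN replicate 1 and 0.0559 without TPEN replicate 3. It was 0.0925 after quantile normalization and 0.0708 with only the 6 libraries compared. Its target Nr2e3 (chr9, 59942771 to 59960659) varied less, with 237, 236 and 237 RPKM in Ctrl, 214, 215 and 215 RPKM in ONC, and 221, 224 and 221 RPKM in TPEN. The 3 groups of Nr2e3 did not overlap, and its log2 fold change in ONC/Ctrl was -0.14 (SE 0.020, limma adjusted p = 0.000937). Nr2e3 shares 61 exon bases (1.81%) with Gm15507 on the same strand, which was at 6.26 ± 1.45 RPKM in Ctrl and 4.06 ± 0.521 RPKM in ONC.

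Rorb (chr19, 18930605 to 19111196) showed the largest decrease among the factors with at least 10 RPKM. The nuclear receptor stood at 24.9, 26.8 and 24.7 RPKM in Ctrl, 18.1, 17.7 and 17.0 RPKM in ONC, and 21.0, 21.2 and 21.3 RPKM in TPEN. No groups overlapped, and the fall from Ctrl to ONC was a log2 fold change of -0.53 (SE 0.043, limma adjusted p = 2.07e-05).

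The cone factors Thrb and Rxrg differed in depth and in size of change. Thrb (chr14, 17660960 to 18038088) was at 13.6, 13.2 and 12.8 RPKM in Ctrl, 12.6, 12.3 and 12.2 RPKM in ONC, and 13.4, 12.9 and 12.6 RPKM in TPEN. The ONC libraries were just below those of Ctrl and TPEN, which overlapped. It did not pass the test in ONC/Ctrl (log2 fold change -0.094, 95% interval -0.19 to 0.0011, limma adjusted p = 0.163). Rxrg (chr1, 167598384 to 167639623) was at 1.75, 1.30 and 1.21 RPKM in Ctrl, 0.587, 0.720 and 0.417 RPKM in ONC, and 0.806, 0.921 and 0.873 RPKM in TPEN. All groups were apart despite the few reads, and the log2 fold change in ONC/Ctrl was -1.18 (SE 0.19, limma adjusted p = 0.00221). At this low level the size of the change depended on the pseudocount, and with 1 RPKM in place of 0.1 it was -0.62 (limma adjusted p = 0.00186). RXRγ is also known in ganglion cells. Pou4f1, an RGC marker with 8 to 71 reads per library, averaged 0.571 ± 0.146 RPKM in Ctrl, 0.183 ± 0.117 in ONC and 0.241 ± 0.0234 in TPEN (SD, n = 3). It lay below the filter and was not tested. Slc17a6, an RGC marker also below the filter, went the other way. It averaged 0.268 ± 0.0728 RPKM in Ctrl, 0.435 ± 0.0768 in ONC and 0.438 ± 0.125 in TPEN. Of the 19 RGC markers listed, 11 were tested, 4 were higher and 1 was lower in ONC/Ctrl, their summed levels, most of them from Nefl, were 375 to 384 RPKM in Ctrl, 399 to 421 in ONC and 314 to 327 in TPEN, and their part in the change of Rxrg was not tested.

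**Figure D2:**
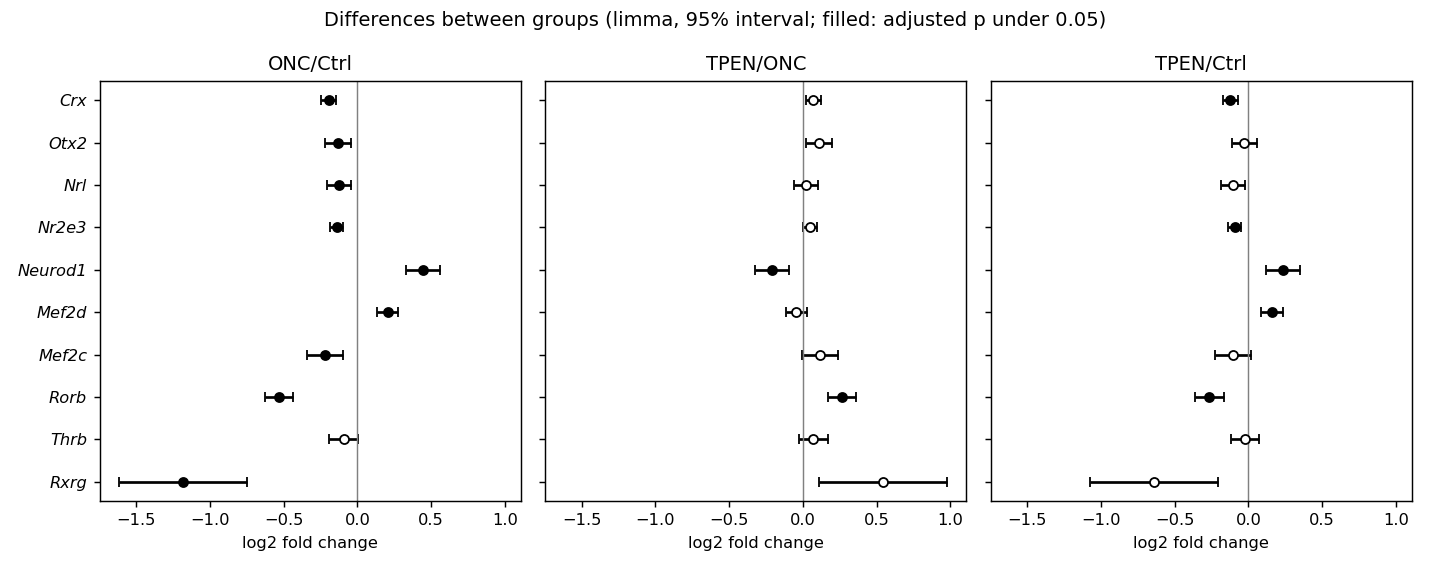
Log2 fold change (horizontal axis) of each factor in ONC/Ctrl, TPEN/ONC and TPEN/Ctrl with its 95% interval from limma (n = 3 libraries a group). Filled points have an adjusted p under 0.05: 9 in ONC/Ctrl, 2 in TPEN/ONC and 5 in TPEN/Ctrl, and the comparisons share libraries.

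TPEN/ONC asks what the chelator changed after the crush. Rorb was higher and Neurod1 was lower in TPEN than in ONC, and the other 8 factors did not pass the test. These 2 of 10 compare with 7.39% of all genes tested (3.24% higher, 4.14% lower). No factor passed with a change of at least 1.5-fold, as 2.03% of genes did. At an unadjusted p under 0.05, 6 factors passed, against 22.0% of genes. The log2 fold change of Rorb was 0.27 (SE 0.043, limma adjusted p = 0.00578), a rise from 17.6 ± 0.587 to 21.2 ± 0.192 RPKM (SD, n = 3). The log2 fold change of Neurod1 was -0.21 (SE 0.051, limma adjusted p = 0.0381), a fall from 480 ± 21.1 to 415 ± 23.0 RPKM. The call for Neurod1 depended on single libraries, with a limma adjusted p of 0.0524 without Ctrl replicate 1, 0.0502 without Ctrl replicate 2, 0.0959 without ONC replicate 1, 0.0578 without ONC replicate 2, 0.121 without ONC replicate 3, 0.116 without TPEN replicate 1 and 0.122 without TPEN replicate 3. It also ended after quantile normalization (log2 fold change -0.18, limma adjusted p = 0.103), under which Rorb and Nr2e3 (0.11, 0.0226) were the 2 factors called, against 7.19% of all genes. By voom on whole reads, 4 factors were called (Crx, Mef2c, Neurod1 and Rorb), against 12.4% of all genes. The overlapping gene Cerkl had a log2 fold change of -0.13 (limma adjusted p = 0.0402).

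The ONC and TPEN libraries did not overlap for 7 factors, against 28.0% of all genes. They were Crx, Otx2, Nr2e3, Rorb, Thrb and Rxrg, each higher in TPEN, and Neurod1. For Crx the log2 fold change was 0.071 (95% interval 0.021 to 0.12, limma adjusted p = 0.0935), for Otx2 0.11 (0.020 to 0.19, 0.139) and for Nr2e3 0.048 (0.0032 to 0.093, 0.195). The interval of Nrl ran from -0.060 to 0.099, that of Mef2d from -0.12 to 0.030 and that of Mef2c from -0.0094 to 0.24. Rxrg had a wide interval of 0.11 to 0.98 around its log2 fold change of 0.54 (limma adjusted p = 0.135), which was 0.25 with a pseudocount of 1 RPKM, and that of Thrb ran from -0.024 to 0.17.

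TPEN/Ctrl compares crushed, TPEN-injected retinas with intact ones, so crush, injection and chelator come together in it. Here 5 of the 10 factors passed the test, against 13.4% of all genes (8.36% higher, 5.01% lower). None passed with a change of at least 1.5-fold, as 3.91% of genes did. Neurod1 (log2 fold change 0.24, limma adjusted p = 0.0139) and Mef2d (0.16, 0.0109) were higher in TPEN than in Ctrl. Crx (-0.12, 0.00573), Nr2e3 (-0.092, 0.0142) and Rorb (-0.26, 0.00287) were lower. Nr2e3 had a limma adjusted p of 0.0508 without Ctrl replicate 1, 0.0527 without TPEN replicate 1 and 0.0528 without TPEN replicate 3. Rxrg (-0.64, 95% interval -1.07 to -0.20, limma adjusted p = 0.0593) and Nrl (-0.10, -0.18 to -0.025, 0.0866) did not pass, although their TPEN libraries lay below all Ctrl libraries. Without ONC replicate 2 or ONC replicate 3, which both enter the estimate of spread, the adjusted p of Rxrg was 0.0497 or 0.0356. Rxrg also passed after quantile normalization (limma adjusted p = 0.0372), with a pseudocount of 1 RPKM (-0.37, 0.0371) and with only the 6 libraries compared (0.0460). With only these 6 libraries Nr2e3 did not pass (0.0524). By voom, 8 factors were called, all but Otx2 and Thrb, against 17.5% of all genes. For 7 factors the Ctrl and TPEN libraries did not overlap, against 31.3% of all genes. Mef2c (-0.11, limma adjusted p = 0.251), Thrb (-0.023, 0.783) and Otx2 (-0.027, 0.715) overlapped with Ctrl. TPEN/Ctrl shares its libraries with the other comparisons and is not independent of them.

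The rod transcripts as a whole were lower in ONC as well. Of 30 rod genes other than these factors, 20 were lower and 2 were higher in ONC/Ctrl, with a median log2 fold change of -0.15 against 0.017 over all genes tested. Their summed level was 34656 to 34748 RPKM in Ctrl, 30932 to 31356 in ONC and 32476 to 32941 in TPEN, and none was at 0. The factors were therefore also compared after each library was shifted to the same mean log2 level of these 30 genes. On that scale, the decreases of Nrl (-0.0097, 95% interval -0.11 to 0.089, limma adjusted p = 0.894), Otx2 (-0.020, -0.13 to 0.087, 0.792), Nr2e3 (-0.026, -0.078 to 0.026, 0.438) and Mef2c (-0.10, -0.21 to 0.0021, 0.129) did not pass the test. Thrb, shifted like every gene by 0.11, was at 0.020. Neurod1 (0.56), Mef2d (0.32), Rorb (-0.42), Rxrg (-1.07) and Crx (-0.08, limma adjusted p = 0.0443) still passed, and these 5 compare with 29.3% of all genes on that scale. Rorb and Neurod1 passed on it in TPEN/ONC (8.65% of all genes), and Mef2d, Neurod1 and Rorb in TPEN/Ctrl (18.1%). The shift put the median log2 fold change of all genes at 0.13. It also moved the share of increases among all genes called in ONC/Ctrl from 62.7% (1590 of 2536) to 90.3% (3594 of 3981), against 46.7% after quantile normalization.

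**Figure D3:**
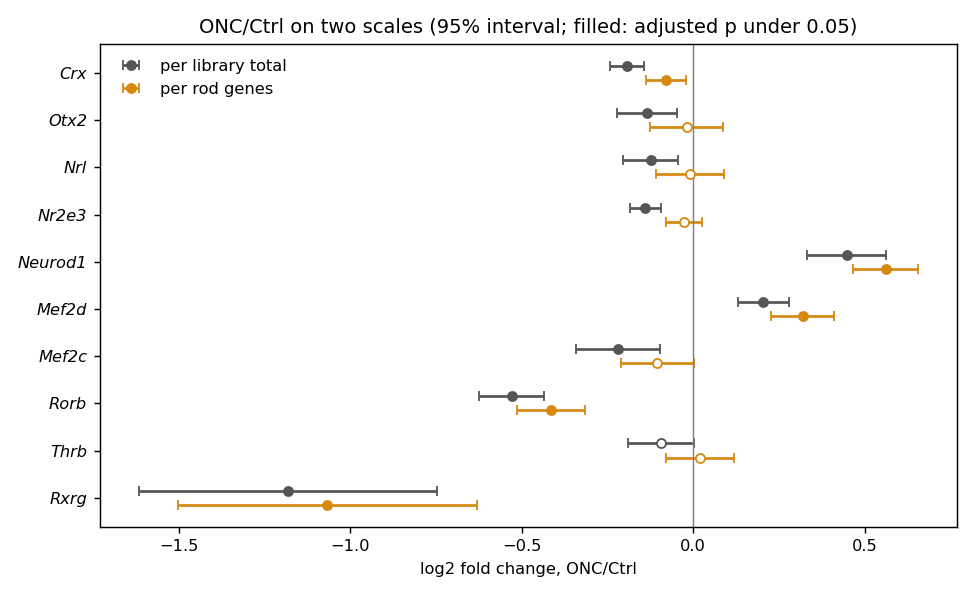
Log2 fold change in ONC/Ctrl (horizontal axis, with 95% intervals from limma) of each factor per library total (grey) and after scaling each library to 30 rod genes (orange), n = 3 libraries a group. Filled points have an adjusted p under 0.05. Nrl, Otx2 and Nr2e3 moved to within 0.03 of 0 on the second scale, whereas Neurod1, Mef2d, Rorb and Rxrg kept their sign and their call.

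Ratios of a pair of factors within a library do not change when all levels of a library are multiplied by a constant. Quantile normalization can change them. They were taken from the deposited RPKM values and are given without a test. The ratio of Neurod1 to Crx was 1.20, 1.17 and 1.08 in Ctrl, 1.80, 1.70 and 1.89 in ONC, and 1.43, 1.56 and 1.45 in TPEN. The 3 groups were apart. The ratio of Mef2d to Mef2c was 2.25 ± 0.209 in Ctrl, 3.02 ± 0.168 in ONC and 2.71 ± 0.173 in TPEN (SD, n = 3), with overlap between ONC and TPEN. That of Rorb to Crx was 0.0832 ± 0.00289 in Ctrl, 0.0658 ± 0.00248 in ONC and 0.0753 ± 0.000372 in TPEN. The ratio of Nrl to Nr2e3, a factor and its target, was 1.12 ± 0.0497 in Ctrl, 1.13 ± 0.0234 in ONC and 1.11 ± 0.0297 in TPEN, and the groups overlapped.

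**Figure D4:**
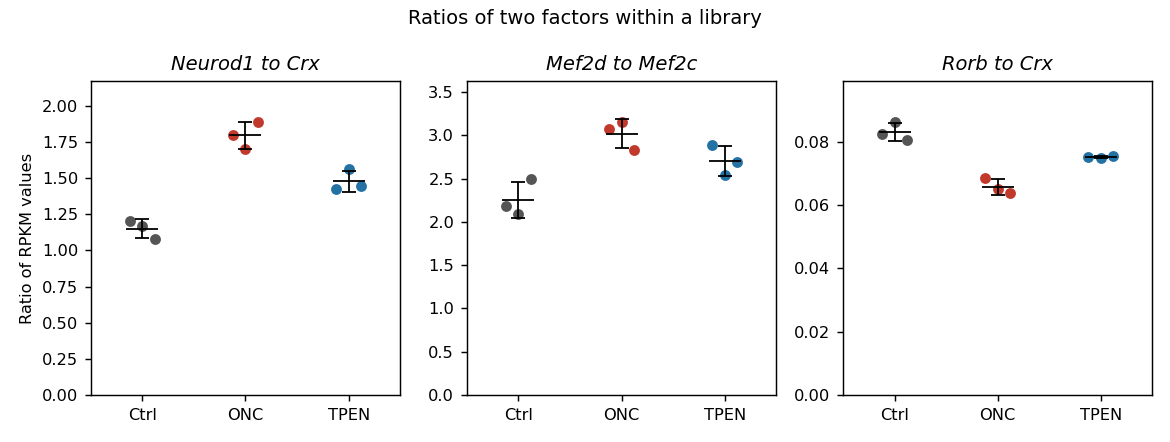
Ratio of RPKM values (vertical axis, from 0) of Neurod1 to Crx, Mef2d to Mef2c and Rorb to Crx within each library of Ctrl, ONC and TPEN. Points are libraries and bars are the mean ± SD (n = 3). Neurod1 to Crx runs from 1.08 to 1.20 in Ctrl and from 1.70 to 1.89 in ONC, with TPEN at 1.43 to 1.56.

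Of 33 other regulators of photoreceptor genes, 28 had a row and 25 were tested. In ONC/Ctrl 1 was higher and 6 were lower, with a median log2 fold change of -0.070. The one that rose was Samd7, a Polycomb protein that CRX switches on in rods, from 55.9 ± 0.883 RPKM in Ctrl to 99.8 ± 1.23 RPKM in ONC (log2 fold change 0.83, limma adjusted p = 1.73e-08). Those that fell most clearly were Nxnl1, which encodes the cone survival factor RdCVF (111 ± 2.96 to 80.9 ± 2.54 RPKM, -0.45, limma adjusted p = 7.50e-06), the orphan nuclear receptor Esrrb (-0.40, 2.07e-05) and Nr1d1, a partner of NR2E3 (-0.30, 0.00160). In TPEN/ONC 5 were higher and 1 lower, with Esrrb (0.20, limma adjusted p = 0.00654), Nxnl1 (0.18, 0.00864) and Pou2f1 (0.30, 0.0153) higher and the Samd7 relative Samd11 (-0.15, 0.0202) lower. Samd7 stayed at 103 ± 0.819 RPKM in TPEN and did not pass the test in TPEN/ONC (0.044, 95% interval -0.012 to 0.099, limma adjusted p = 0.343). In TPEN/Ctrl 3 were higher and 5 lower, led by Samd7 (0.88, limma adjusted p = 2.55e-08), Nxnl1 (-0.27, 0.000352), Samd11 (-0.25, 0.000716) and Esrrb (-0.21, 0.00238).

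Family relatives of the 10 factors were mostly low, and 10 of the 15 listed were tested. In ONC/Ctrl the receptors Rora (-0.22, limma adjusted p = 0.00225) and Thra (-0.15, 0.0207) were lower. Rora, like Rorb, was higher in TPEN/ONC (0.24, limma adjusted p = 0.00479), with 18.5 ± 0.282 RPKM in Ctrl, 15.8 ± 0.407 in ONC and 18.7 ± 0.391 in TPEN (SD, n = 3). Neurod4, unlike Neurod1, was higher in TPEN/ONC (0.50, limma adjusted p = 0.0215) and in TPEN/Ctrl (0.46, 0.0196).

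In TPEN/ONC most of the listed cone genes were higher, while the cone factors Thrb and Rxrg did not pass the test. Whether the genes and the factors differed was not tested. The list of cone genes is not limited to phototransduction and shares Grk1 and Guca1a with the rod genes. Of 16 cone genes tested, 10 were higher and 1 was lower, with a median log2 fold change of 0.66, and in TPEN/Ctrl 14 were higher and 1 lower, with a median of 0.63. Pde6c, the cone phosphodiesterase, was at 27.2 ± 0.915 RPKM in Ctrl, 22.4 ± 0.616 in ONC and 43.6 ± 1.10 in TPEN, a log2 fold change of 0.96 in TPEN/ONC (limma adjusted p = 8.81e-07). The cone arrestin Arr3 (0.73, limma adjusted p = 1.63e-06), the S-opsin gene Opn1sw (0.81, 4.84e-06) and Pde6h (0.89, 1.14e-05) were also higher. Thrb had values of 12.3 ± 0.209 RPKM in ONC and 13.0 ± 0.424 in TPEN. Of the rod genes, 9 were higher and 2 were lower in TPEN/ONC with a median of 0.020, and 1 was higher and 18 were lower in TPEN/Ctrl with a median of -0.093.

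The genes whose log2 values, centred on their means, followed each factor most closely over the 9 libraries are given as a description. They were ranked among 12142 genes that averaged 1 RPKM or more (12143 for Rxrg), by root mean square difference. Nearest to Crx was Taok3 (0.019), then Dnajc5 and Mpdz. Nearest to Nr2e3 were Rufy3, Mpp4 and Arl4d (0.013 to 0.014), to Nrl 4632415L05Rik, Crb2 and Pacsin2 (0.018 to 0.019), and to Otx2 Cpe, Bsg and Amer2 (0.018 to 0.025). Neurod1 was followed by Ift57 (0.043), Gm15518 and Pbdc1, Mef2d by Sap30l (0.022), Syt1 and Ptma, and Mef2c by 6330408A02Rik (0.029), Gnb1 and Tmem167. Rorb was followed by Rncr4 (0.041), Gas7 and Fam3c, and the shallow Rxrg by Gm33366 (0.21), Cyr61 and RP23-292G1.5. All values came from the same 9 libraries, so shared depth and group differences enter these distances.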

How the data were processed

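RNA of 3 Ctrl, 3 ONC and 3 TPEN libraries was sequenced after stranded library preparation with molecular identifiers. Per the labels and the methods of the study, reads were trimmed (Trimmomatic 0.36) and mapped to GRCm38/mm10 by the authors, who deposited RPKM values for 15228 genes. The counting program, its annotation, its use of strand and the collapsing of identifiers are not given in the sources used here. The deposited log2 fold changes and p-values of the authors' own comparisons were not used.

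RPKM times exon length gave whole reads for 100% of values (tolerance 0.01 reads), which gave the library totals of 19946993 to 23109754 reads and counts for 1 alternative test with voom. Each factor had at least 22 reads in every library. Groups were compared with limma 3.58.1 (R 4.3.3), with a trend of variance on mean, on log2(RPKM + 0.1). The fit held all 9 libraries and the 13566 genes that averaged 0.5 RPKM or more, over which p-values were adjusted (Benjamini-Hochberg). This test on the deposited scale took the place of the study's own count test. On simulated data for ONC/Ctrl with 13566 genes, the fit recovered 12 of 100 genes changed 1.2-fold (11 of the 36 with at least 10 RPKM) and 62 of 100 changed 1.5-fold (33 of 36), and called 2 of 13366 unchanged genes. The simulated spread was that of the closest replicate pair (mean chi-square per gene of 2.30, where pairs reached 5.32) plus a part in proportion to the level. This added part weighs most on genes with many reads. Far fewer genes were changed than the 2536 called in ONC/Ctrl, so these rates may not hold for the data.

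The factors and lists were chosen with earlier results of these data known. Named genes are all 10 factors, up to 4 genes of each list with the smallest adjusted p among those called, genes that overlap a factor or mark a cell type beside it, and for each called factor the 3 closest genes that averaged 1 RPKM or more. Pou4f1, Slc17a6 and Rxrg were set side by side after their values were seen, as were the overlapping genes, the ratios and the cell-type sums. Positions and exons are those of the deposited table (GRCm38), and promoters are from RefSeq (GRCm38.p6). Proteins of the factors were not compared here. Some genes of the lists are not reported here. Alternatives were quantile normalization, scaling to 30 rod genes, no filter or 1 RPKM, a pseudocount of 1 RPKM, 6 libraries, a replicate block, voom, 1.5-fold or unadjusted thresholds, and leaving out each library.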

Additional observations from a re-analysis of the deposited data

How the results depend on the processing

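In ONC/Ctrl, the 9 factors called became 5 after scaling to rod genes, 1 with a change of at least 1.5-fold, and 6 to 9 when a library was left out (14.2% to 18.2% of all genes). In TPEN/ONC, the 2 called became 4 by voom (12.4% of all genes), 0 with 1.5-fold, 6 at an unadjusted p under 0.05, and 1 to 2 when a library was left out (3.95% to 8.48% of all genes). After quantile normalization the count of 2 held Rorb and Nr2e3 in place of Rorb and Neurod1. In TPEN/Ctrl, the 5 called became 3 after scaling to rod genes, 8 by voom (17.5% of all genes), 0 with 1.5-fold, and 4 to 6 when a library was left out (9.79% to 12.5%). Rxrg, with a mean of 0.954 RPKM, left the test by construction at a filter of 1 RPKM. The calls of Crx, Nr2e3, Neurod1, Mef2d, Rorb and Rxrg in ONC/Ctrl and of Rorb in TPEN/ONC held without any 1 library. Scaling to rod genes adds the same constant to the log2 fold change of every gene, 0.11 in ONC/Ctrl, -0.037 in TPEN/ONC and 0.077 in TPEN/Ctrl, and smaller values of the opposite sign changed sign by construction: Thrb to 0.020 in ONC/Ctrl and 0.054 in TPEN/Ctrl, Nrl to -0.018 in TPEN/ONC and Otx2 to 0.050 in TPEN/Ctrl. None of these 4 was called on either scale. Without Ctrl replicate 3 that of Otx2 in TPEN/Ctrl was 0.0057 (range over libraries left out -0.048 to 0.0057). Over all factors, comparisons and alternatives, 451 log2 fold changes kept their direction and side of the threshold, 40 lost the call, 11 gained it and 5 turned, 4 of them by that constant. Quantile normalization keeps the order of levels within a library by construction and was not run for it.

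With the replicate number as a block, 7 factors were called in ONC/Ctrl (16.4% of all genes), 1 in TPEN/ONC (5.17%) and 4 in TPEN/Ctrl (10.8%). Same-numbered libraries had correlations of their deviations of -0.0623 to 0.0268, and others of -0.0375 to 0.0511. Of the 9 libraries, 1 correlated best with a library of its own number. These values showed no pairing by number. Deviations from a group mean cancel within the group, so such values cannot exclude pairing. Of 36 simulated 1.2-fold changes at 10 RPKM or more, 11 were recovered, so a change of that size can go uncalled under those simulated settings.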
